A study of Homo sapiens with 6 samples.

Results

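The transcripts described here encode enzymes that make asparagine, cysteine and proline, or supply their precursors, in human neuroblastoma cells with an inducible KDM4C construct. The set was defined by gene name as ASNS, CTH, CBS, OAT, PYCR1, PYCR3, ALDH18A1, GPT2 and GOT1. A member was measured where a probe set was annotated to its symbol and to no other. That held for 6 of the 9 (ASNS, CTH, CBS, OAT, PYCR1 and PYCR3, with 1 probe set each), out of 14884 named genes in all, while ALDH18A1, GPT2 and GOT1 had no named probe set and are not analysed here. BE(2)-C is an established neuroblastoma cell line, and its derivative BE(2)-C_tetoff_KDM4C carries KDM4C, a demethylase of methylated lysine 9 on histone H3, under a tet-off switch. Expression was measured on 6 Affymetrix whole-transcript arrays at day 6, 3 from cells grown without doxycycline (construct on) and 3 from cells grown with it (construct off). Both groups carried the construct and were grown in DME/F-12 medium with dialyzed serum. A line lacking the construct was not analysed here, so KDM4C induction and withdrawal of doxycycline cannot be told apart in any difference below, and whether the line is 1 clone is not given in the sources used here.

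Asparagine synthetase (ASNS) transfers an amide group from glutamine to aspartate and is the only human enzyme that makes asparagine. Cysteine is made from methionine through homocysteine: cystathionine beta-synthase (CBS) joins homocysteine with serine, and cystathionine gamma-lyase (CTH) splits the product to release cysteine. Proline is made from glutamate or ornithine through pyrroline-5-carboxylate. Ornithine aminotransferase (OAT) connects ornithine to that intermediate, and the pyrroline-5-carboxylate reductases PYCR1 (mitochondrial) and PYCR3 (cytosolic) turn it into proline. ATF4, the transcription factor whose translation rises when amino acids are short, is known to induce ASNS, CTH and PYCR1. On DNA it binds, with a partner, to sites called C/EBP-ATF response elements.

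The promoter windows of ASNS and CTH, which passed the test below, and of OAT, which did not, are shown because ASNS is the textbook target of such an element. RefSeq windows of GRCh38.p14, from 250 bases before a gene's start to 50 after it, were found for 4 of the 6 measured members, with 7 windows in all. The 3 below run 5′ to 3′ on the gene's strand. Capitals mark matches, on either strand, to TGATGNAA (the core of the response element, N being any base) or to GTTACA (the companion element known from the human ASNS promoter).
ASNS, chr7:97872359-97872658, minus strand: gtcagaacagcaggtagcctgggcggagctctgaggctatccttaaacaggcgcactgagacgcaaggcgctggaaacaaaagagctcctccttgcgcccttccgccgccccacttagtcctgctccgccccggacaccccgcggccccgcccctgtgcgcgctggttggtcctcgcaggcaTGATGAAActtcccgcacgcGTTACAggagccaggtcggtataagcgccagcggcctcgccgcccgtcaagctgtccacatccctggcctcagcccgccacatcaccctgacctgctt
CTH, chr1:70411018-70411317, plus strand: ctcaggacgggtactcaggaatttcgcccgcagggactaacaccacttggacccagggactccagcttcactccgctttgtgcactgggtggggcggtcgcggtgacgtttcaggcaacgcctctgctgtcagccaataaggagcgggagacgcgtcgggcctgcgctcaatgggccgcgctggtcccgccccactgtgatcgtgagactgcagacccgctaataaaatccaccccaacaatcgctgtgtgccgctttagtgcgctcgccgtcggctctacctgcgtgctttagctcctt
OAT, chr10:124418874-124419173, minus strand: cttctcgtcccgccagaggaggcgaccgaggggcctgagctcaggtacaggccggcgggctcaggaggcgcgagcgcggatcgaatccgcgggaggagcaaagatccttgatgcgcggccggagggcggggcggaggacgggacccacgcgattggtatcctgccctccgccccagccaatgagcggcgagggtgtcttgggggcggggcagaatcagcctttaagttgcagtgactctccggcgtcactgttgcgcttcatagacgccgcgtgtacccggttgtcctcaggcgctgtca
The first of 2 ASNS windows held TGATGAAA from 68 to 61 bases before the start and GTTACA from 48 to 43 bases before it, with no overlap between them. It also held TATAAG, a match to the TATA motif (searched as TATAAN on both strands), from 29 to 24 bases before the start. Neither of the first 2 motifs was found in the second ASNS window, in the CTH or OAT windows shown, or in the 3 CBS windows. Among all 35116 windows of this length, 3.62% held TGATGNAA, 6.66% held GTTACA and 0.498% held both, while 20.4% held TATAAN. Of 15 other genes of the ATF4 list described below that had windows, 1 held TGATGNAA and 1 held GTTACA. A match is a run of letters and not a measured binding site, and no match says only that these letters are not in the window.

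KDM4C was at 8.97, 9.08 and 9.02 (log2 expression value) without doxycycline, against 7.71, 7.77 and 7.80 with it, giving a difference of 1.27 on the log2 scale (SE 0.07, limma adjusted p = 0.00788), and its probe set does not separate construct from endogenous transcript. At an adjusted p below 0.05, 133 of all 53617 probe sets had a positive and 50 a negative difference. Correlations between arrays over all probe sets were 0.991 to 0.993 within groups and 0.990 to 0.991 between them. Of 14 markers of noradrenergic neuroblastoma 11 were measured, with 0 past the threshold (5 at an unadjusted p below 0.05), and GATA3 was at 9.56 without and 9.54 with doxycycline. TH and DBH, enzymes of catecholamine synthesis, were at 0.34 and 0.28 (log2 difference), while CHGA and CHGB, granins of secretory vesicles, were at -0.40 and -0.34. MYCN was not analysed here. Among markers of other cell types, 0 of 6 neural crest and Schwann, 0 of 7 epithelial, 0 of 4 blood and immune and 0 of 5 endothelial genes passed the test (1, 0, 0 and 1 at an unadjusted p below 0.05). Of these, 4, 4, 3 and 5 lay below the median probe set, so the zeros say little about those cell types. Of 10 mesenchymal and fibroblast markers 5 were measured, with 2 at an unadjusted p below 0.05, both lower. Their log2 values summed to 30.0 to 30.1 without doxycycline, against 31.7 to 32.0 with it. DCN (decorin) fell in that list (log2 difference -1.29, limma adjusted p = 0.0119), LUM (lumican) was at 11.1 without and 11.4 with doxycycline, and FN1 (fibronectin), at 3.44 and 3.39, lay below the median probe set. The part of these markers in the results on the enzymes was not tested. In a bulk RNA sample, fewer cells of a type and less RNA per cell cannot be told apart.

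Of the 6 enzymes, ASNS and CTH rose without doxycycline and 0 fell, where 0.248% of all probe sets passed as higher and 0.0933% as lower. PYCR1 lay higher and OAT lower in every array without doxycycline than in any with it, but neither passed the test, and the groups of CBS and PYCR3 overlapped. A positive difference was seen for 3 of the 6, against 52.0% of all probe sets, and their median was 0.06 on the log2 scale, against 0.006 over all probe sets. Of all probe sets, 19.3% had groups that did not overlap, against 4 of the 6 enzymes. All 6 lay above the median probe set in mean level. At an unadjusted limma p below 0.05 were 4781 of the 26809 probe sets left without dim ones, against 6664 of all 53617. The enzymes were also chosen with earlier results of these arrays known. Their counts beside those of all probe sets are therefore a description and no independent evidence. SE stands for the standard error from the moderated limma fit and SD for the standard deviation of 3 arrays, and p-values were adjusted over all 53617 probe sets.

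**Figure D1:**
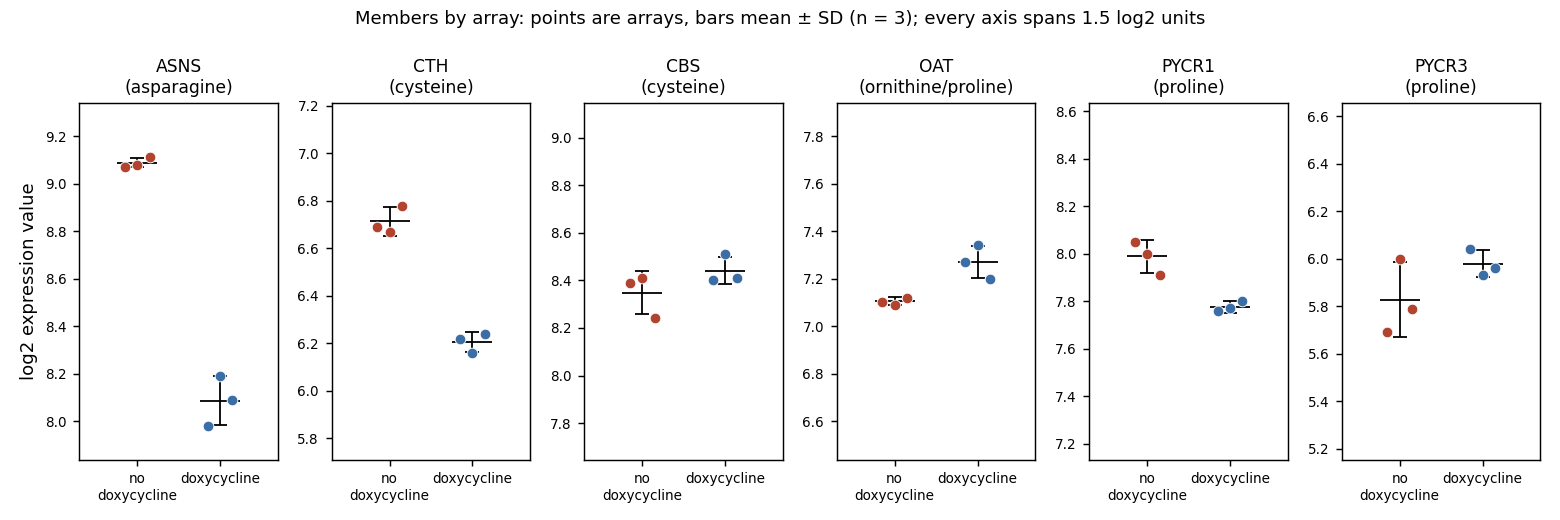
Log2 expression value (vertical axis, each panel spanning 1.5 log2 units) of the 6 measured enzymes on each array, without doxycycline at left and with it at right, with points for arrays and bars for mean ± SD (n = 3). The groups of ASNS, CTH, OAT and PYCR1 are apart, by 0.89 log2 units for ASNS and 0.08 for OAT, and those of CBS and PYCR3 overlap.

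ASNS was at 9.07, 9.08 and 9.11 without doxycycline, against 7.98, 8.19 and 8.09 with it (log2 expression value). The 3 arrays without doxycycline lay within a few hundredths of each other, all above every array with it. The means were 9.09 ± 0.02 without and 8.09 ± 0.10 with doxycycline (SD, n = 3 each), so the transcript was 2.00-fold higher (95% confidence interval 1.77 to 2.26). On the log2 scale the difference was 1.00, with an SE of 0.07 and a limma adjusted p of 0.0130. Ordered by p, ASNS stood at place 8 among the 14884 named genes, and ordered from the highest difference at place 25. The gap between the lowest array without doxycycline and the highest with it was 0.89 log2 units, which is wider than the spread within either group. ASNS is thus the enzyme of the set with the largest difference in these arrays. With any 1 of the 6 arrays left out the difference stayed between 0.95 and 1.05, and the limma adjusted p was then 0.0578 to 0.0906, each time above the threshold.

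CTH, the last step of cysteine synthesis, was at 6.69, 6.67 and 6.78 without doxycycline, against 6.22, 6.16 and 6.24 with it (log2 expression value). The groups lay 0.43 log2 units apart. The means were 6.71 ± 0.06 without and 6.21 ± 0.04 with doxycycline (SD, n = 3 each), a 1.42-fold higher level without doxycycline (95% confidence interval 1.27 to 1.59). The log2 difference was 0.51 (SE 0.07), with a limma adjusted p of 0.0469, just inside the threshold. That call was lost with quantile normalization (limma adjusted p = 0.0513) and with any 1 array left out (limma adjusted p 0.140 to 0.177), while the difference itself stayed between 0.47 and 0.53.

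CBS, which acts before CTH in the same route, was at 8.39, 8.41 and 8.24 without doxycycline, against 8.40, 8.51 and 8.41 with it. The third array without doxycycline was the lowest of the 6, and the groups overlapped. The log2 difference was -0.09 (95% confidence interval -0.27 to 0.09, limma adjusted p = 0.677). It was -0.04 without replicate 3 of the arrays without doxycycline and -0.06 without replicate 2 of those with it (limma adjusted p = 0.901 and 0.830). The RefSeq table lists CBSL among the synonyms of CBS, and the row was not split between these names. Set against each other within each array, CTH minus CBS averaged -1.64 ± 0.15 without doxycycline and -2.23 ± 0.10 with it (SD, n = 3 each). These averages were 0.60 apart on the log2 scale. The groups did not overlap, as those of CTH alone did not. The two-sided exact permutation test gave p = 0.1, the smallest that 3 against 3 arrays allow (0.1 also after Benjamini-Hochberg adjustment over 2 pairs). It therefore cannot decide whether the responses of these consecutive steps differ. Of 5 pairs planned by role, 3 involved members without a probe set.

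Of the proline enzymes, PYCR1 was at 8.05, 8.00 and 7.91 without doxycycline, against 7.76, 7.77 and 7.80 with it (log2 expression value). Every array without doxycycline was above every array with it, by at least 0.11. The log2 difference was 0.21 (SE 0.07, 95% confidence interval 0.06 to 0.37), which corresponds to a 1.16-fold level. It had an unadjusted limma p of 0.0152 and an adjusted p of 0.270, and so did not pass. Of all probe sets, 6.70% were higher at an unadjusted p below 0.05.

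PYCR3, the cytosolic counterpart of PYCR1, was at 5.69, 6.00 and 5.79 without doxycycline, against 6.04, 5.93 and 5.96 with it. The second array without doxycycline lay among those with it, and the SD was 0.16 without and 0.06 with doxycycline. The log2 difference was -0.15 (SE 0.09, 95% confidence interval -0.38 to 0.07, limma adjusted p = 0.578). It was -0.08 without replicate 1 and -0.24 without replicate 2 of the arrays without doxycycline (limma adjusted p = 0.812 and 0.404, the second with an unadjusted p of 0.0272). PYCR1 minus PYCR3 within each array averaged 2.16 ± 0.18 without doxycycline and 1.80 ± 0.07 with it (SD, n = 3 each). These averages were 0.36 apart on the log2 scale. Again the groups did not overlap, as those of PYCR1 alone did not. The exact permutation p was 0.1, the smallest possible (0.1 after adjustment over the 2 pairs), so it cannot decide whether the responses differ.

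OAT was at 7.10, 7.09 and 7.12 without doxycycline, against 7.27, 7.34 and 7.20 with it (log2 expression value). The arrays without doxycycline were the 3 lowest, with a gap of 0.08 between the groups. The log2 difference was -0.16 (SE 0.07, 95% confidence interval -0.32 to -0.01), a level 1.12-fold lower. Its unadjusted limma p was 0.0426 and its adjusted p 0.384, and 5.73% of all probe sets were lower at an unadjusted p below 0.05. The interval of OAT lay wholly below 0 and that of PYCR1 wholly above it, both before adjustment. With 1 array left out the unadjusted limma p was 0.0341 to 0.119 for OAT and 0.0144 to 0.0536 for PYCR1. With the replicate number as a block it was 0.0851 for OAT and 0.0411 for PYCR1.

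The other genes of these pathways did not pass the test in either direction. Beside ASNS, 10 of 21 further genes of asparagine, aspartate, glutamate and alanine metabolism were measured, with a median log2 difference of 0.01, 0 past the limma threshold and 1 at an unadjusted p below 0.05. That gene was ABAT, which breaks down the neurotransmitter GABA, at 7.77 ± 0.04 without and 8.07 ± 0.09 with doxycycline (log2 difference -0.30, limma adjusted p = 0.177). ASRGL1, an asparaginase, had a log2 difference of 0.24 (limma adjusted p = 0.443), with 2 dimmer probe sets at 0.01 and -0.09. ADSS1, which uses aspartate to make adenylosuccinate, was at -0.12. Asparaginase ASPG lay below the median probe set, at 3.78 without and 3.80 with doxycycline (a gene chosen after its values were seen).

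Beside CTH and CBS, 16 of 19 genes of the methionine cycle and its branches were measured, with a median log2 difference of -0.05 and 0 past the limma threshold. At an unadjusted p below 0.05, 0 were higher and 3 lower, against 6.70% and 5.73% of all probe sets. MRI1, an enzyme of methionine salvage, was at 7.84 ± 0.01 without and 8.10 ± 0.03 with doxycycline (log2 difference -0.26, limma adjusted p = 0.168). AHCYL2, a relative of adenosylhomocysteinase, was at -0.28 (limma adjusted p = 0.203), and BHMT, which methylates homocysteine, at 0.11. BHMT lay below the median probe set, at 3.28 without and 3.17 with doxycycline. Downstream of cysteine, 13 of 21 genes of sulfide, taurine and glutathione metabolism had a median of -0.03, with 0 past the limma threshold and 2, both lower, at an unadjusted p below 0.05. TST (rhodanese, a sulfurtransferase) was at 6.41, 6.70 and 6.43 without doxycycline, against 7.01, 7.02 and 6.88 with it, a log2 difference of -0.46 (SE 0.10, limma adjusted p = 0.150). The arrays without doxycycline were the 3 lowest. GGT7, of the gamma-glutamyltransferase family, was at -0.24, and SUOX (sulfite oxidase) and GGT5 at 0.16 and 0.14 (log2 differences).

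Beside OAT, PYCR1 and PYCR3, 11 of 18 genes of proline, ornithine and arginine metabolism were measured. Of these 9 had positive differences, against 52.0% of all probe sets, and 4 of the 11 lay below the median probe set. The median difference was 0.11 and 0 passed the limma threshold. At an unadjusted p below 0.05 there were 2, both higher, against 6.70% of all probe sets. The 2 were the consecutive enzymes that make arginine from citrulline and aspartate. Argininosuccinate synthase (ASS1) was at 10.16, 10.22 and 10.27 without doxycycline, against 9.63, 9.79 and 9.74 with it, a log2 difference of 0.50 (SE 0.07, limma adjusted p = 0.0579). It passed the threshold in 2 alternatives, with trend and robust moderation and without dim probe sets. Argininosuccinate lyase (ASL) was at 6.86, 6.64 and 6.84 without doxycycline, against 6.43, 6.26 and 6.42 with it, a log2 difference of 0.41 (SE 0.09, limma adjusted p = 0.151). For both enzymes every array without doxycycline was above every array with it. The proline-degrading enzyme PRODH lay below the median probe set, at 3.01 without and 3.05 with doxycycline (also chosen after its values were seen).

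**Figure D2:**
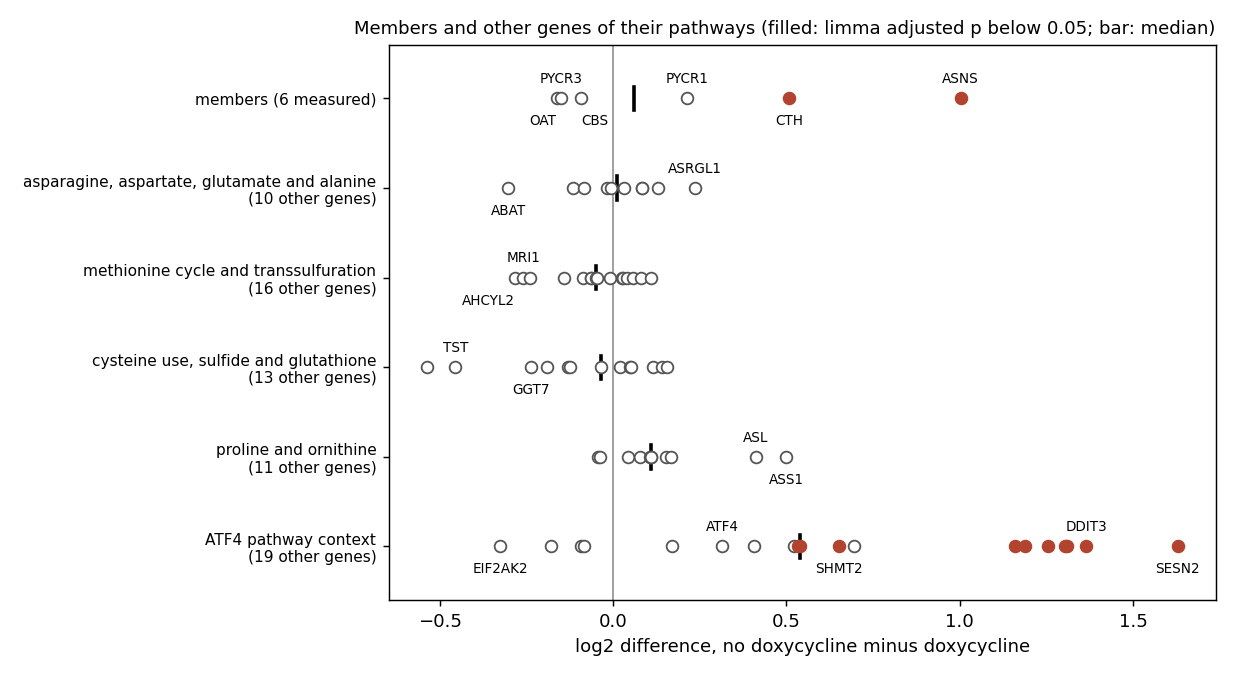
Log2 difference, no doxycycline minus doxycycline (horizontal axis), of the 6 measured enzymes and of the other measured genes of 4 pathway lists and of the ATF4 list (rows), with filled points for genes at a limma adjusted p below 0.05 and a bar for each row's median. Filled points are found for ASNS, CTH and 10 genes of the ATF4 list.

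Genes of the ATF4 pathway that are not in the set gave the context for ASNS and CTH. Of 25 listed, 19 were measured, 10 rose and 0 fell, where 0.248% of all probe sets passed as higher and 0.0933% as lower. The median of the 19 was 0.54 on the log2 scale. The list was assembled with earlier results of these arrays known and is no independent evidence of its direction. SESN2 and DDIT3 were at 1.63 and 1.36, TRIB3 and DDIT4 at 1.31 and 1.30, and ATF5, GDF15 and STC2 at 1.26, 1.19 and 1.16 (log2 differences). The difference of ASNS, 1.00, lay below these 7 and above those of SHMT2, PSPH and EIF4EBP1 (0.65, 0.54 and 0.53). CTH, at 0.51, had a smaller difference than any of the 10. ATF4 mRNA, named beyond the rule, was at 0.31 (limma adjusted p = 0.179). The kinases EIF2AK2 and EIF2AK3, which can raise ATF4 translation, were at -0.33 and -0.18 (limma adjusted p = 0.119 and 0.531). With any 1 array left out 0 to 3 of the 10 passed.

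The named genes whose profile over the 6 arrays was closest to that of ASNS were WARS1, PLK2, EGR1 and PLXNA2. Closeness was the root mean square difference between profiles centred on their own mean, and was 0.06, 0.07, 0.08 and 0.09 log2 units. WARS1, the cytosolic tryptophanyl-tRNA synthetase, was at 8.77 without and 7.83 with doxycycline. EGR1 is an immediate early transcription factor, PLK2 a polo-like kinase and PLXNA2 a semaphorin receptor, with log2 differences of 1.02, 0.94 and 1.04. WARS1 and EGR1 had 2 named probe sets each, and only the brighter of each is given here. Closest to CTH were SPECC1L, AUTS2, AURKB and FOXM1, each at a root mean square difference of 0.03 to 0.04. AURKB, a mitotic kinase, and FOXM1, a transcription factor of mitotic genes, had log2 differences of 0.55 and 0.51. SPECC1L and AUTS2 were at 0.47 and 0.46, with limma adjusted p values of 0.0544 and 0.0565. The likeness is set mostly by the difference between the groups, and is a description over 6 arrays.

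**Figure D3:**
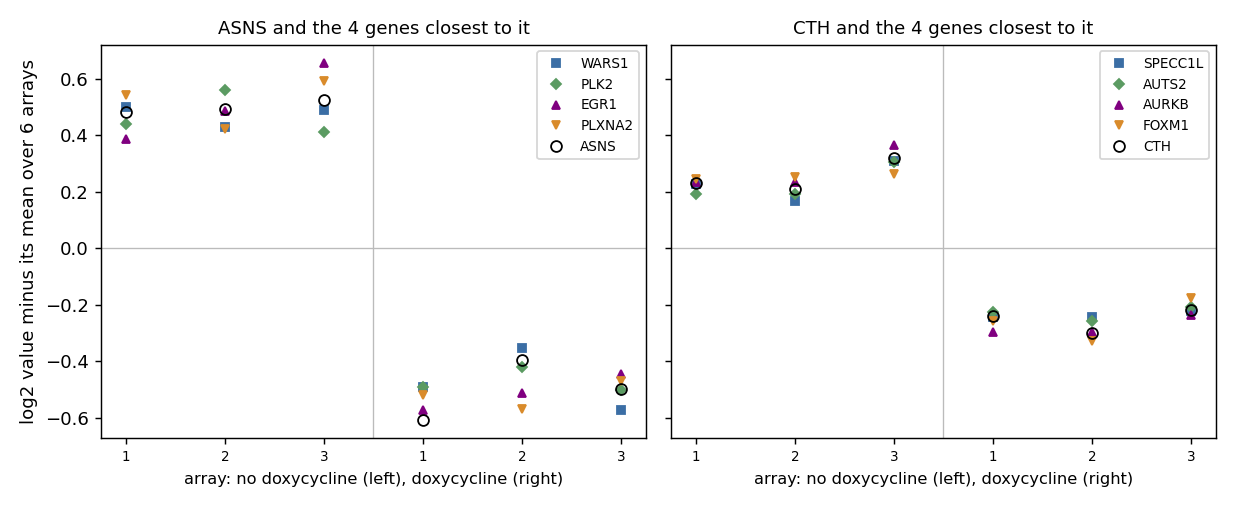
Log2 value minus its mean over the 6 arrays (vertical axis) for ASNS (left panel) and CTH (right panel), drawn as open circles, and for the 4 named genes closest to each, with the 3 arrays without doxycycline at left and the 3 with it at right in each panel. All points lie above 0 without doxycycline and below 0 with it, farther from 0 for ASNS (log2 difference 1.00) than for CTH (0.51).

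The calls of ASNS and CTH were thus lost with any 1 array left out. Both were also lost with the replicate block (limma adjusted p = 0.119 and 0.191). The block keeps all 6 arrays but fits more terms, which leaves fewer degrees of freedom. The SE of ASNS was 0.0776 with the block and 0.0738 as reported. In size, the differences of ASNS and CTH moved little. ASNS passed with quantile normalization, with trend and robust moderation and without dim probe sets (limma adjusted p = 0.0118, 0.00397 and 0.0120), and CTH in the last 2 of these (0.0456 and 0.0360). CBS, OAT, PYCR1 and PYCR3 passed in none of the 10 alternatives, and none of the 6 changed direction in any.

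**Figure D4:**
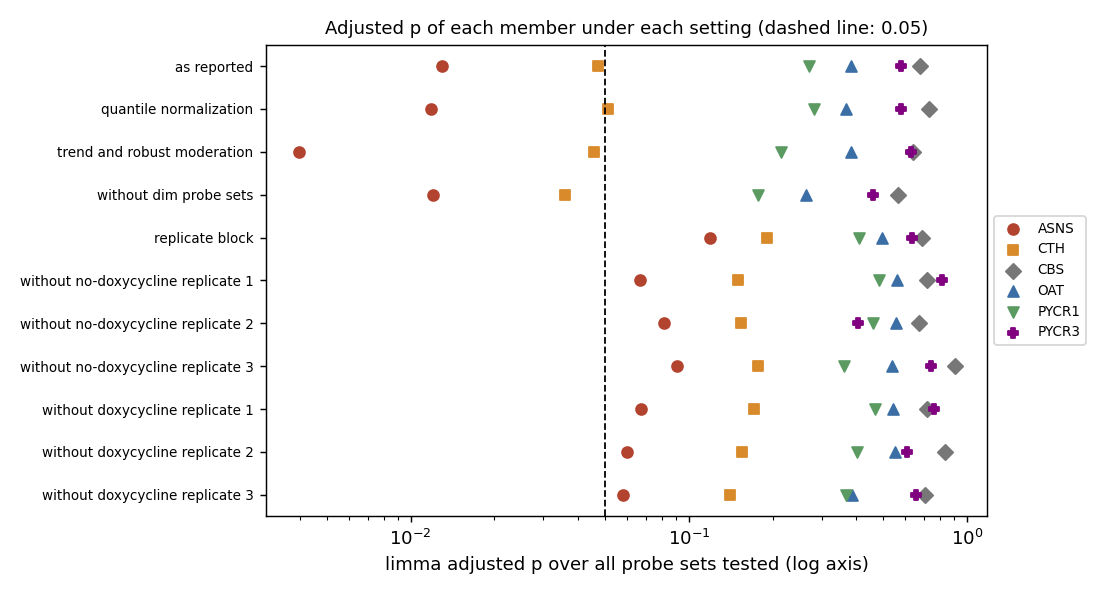
Limma adjusted p over all probe sets tested (horizontal log axis) of each measured enzyme under the reported setting and 10 alternatives (rows), with a dashed line at 0.05. ASNS lies left of the line in 4 rows and CTH in 3, and the other enzymes lie right of it in every row.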

How the data were processed

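Total RNA of 6 samples was hybridised to 6 Affymetrix whole-transcript arrays, 1 sample per array. The authors deposited log2 values, 1 for each probe set on each array, made with Partek per the submitters' processing notes. How background was corrected, probes summarized and arrays normalized, and on which genome build, is not given in the sources used here. That the logarithm is base 2 was inferred from the range of 2.12 to 14.3, and array medians of 3.94 to 3.96 show a common scale. Precision is limited by the number of arrays, and detection calls were not used.

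Names came from GEO's annotation of the platform. Of 53617 probe sets 16098 had 1 symbol, covering 14884 genes, and RefSeq's gene table changed 0 symbols. The brightest probe set stood for a gene with more than 1. Limma 3.58.1 (lmFit and eBayes, R 4.3.3) was fitted to the whole table, without covariates or filter, as no doxycycline minus doxycycline. P-values were adjusted by Benjamini and Hochberg over all probe sets, with 0.05 as threshold. The design text calls the samples independent without naming separate cultures, so p-values measure the spread between these samples. The 2 member pairs were compared by two-sided exact permutation tests. The fit was tested on simulated, normally distributed data with these means and moderated spreads. It recovered 82.1% of 67 genes changed by 1 and 20.9% of 67 changed by 0.5 on the log2 scale. There were 13 false calls among 146, a larger share than the 0.05 aimed at. Only a small part of the probe sets was changed in the simulation, so these rates need not hold for the real arrays.

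Beside the members, KDM4C and GATA3, the text names every gene past the threshold in each fixed list, in the pathway, ATF4 and neuroblastoma lists also the 2 genes of lowest p per direction, and the 4 closest profiles to ASNS and to CTH. In the lists of other cell types only the mesenchymal genes are named. The members and lists were chosen with earlier results of these data known. Alternatives were quantile normalization, trend with robust moderation, omission of probe sets below the median mean, the replicate number as a block, and omission of each array.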

Additional observations from a re-analysis of the deposited data

How the results depend on the processing

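The count of probe sets past the threshold was 183 in the reported fit, 385 with trend and robust moderation, 311 without dim probe sets (26809 probe sets tested) and 0 with the replicate block (6251 at an unadjusted p below 0.05), and 0 to 15 with 1 array left out (5542 to 6191 at an unadjusted p below 0.05). The array left out gave 13, 0 and 0 for replicates 1, 2 and 3 without doxycycline and 1, 2 and 15 for replicates 1, 2 and 3 with it. Of the enzymes, 2 were higher as reported, 1 (ASNS) with quantile normalization, 0 with the replicate block and 0 to 0 with 1 array left out (2 or 3 at an unadjusted p below 0.05 in those). With the block, ASNS was at 1.00 and CTH at 0.51 (limma adjusted p = 0.119 and 0.191), and with quantile normalization CTH was at 0.51 (0.0513). With 1 array left out ASNS was at 0.95 to 1.05 and CTH at 0.47 to 0.53, while CBS was at -0.12 to -0.04 and PYCR3 at -0.24 to -0.08. In the proline and ornithine list 1 gene, ASS1, was higher with trend and robust moderation and 1, ASS1, without dim probe sets. In the ATF4 list the 10 higher genes became 0 with the block (14 at an unadjusted p below 0.05) and 0 to 3 with 1 array left out, and 1 gene, EIF2AK2, was lower with trend and robust moderation. The pair differences were 0.51 to 0.65 for CTH minus CBS and 0.27 to 0.44 for PYCR1 minus PYCR3 with 1 array left out. The cause of these changes was not tested. The fits with 1 array left out use fewer arrays, and the fit without dim probe sets uses fewer probe sets. The other alternatives keep all arrays and probe sets, though the replicate block leaves fewer degrees of freedom. Deviations of same-numbered arrays from their group means correlated at -0.01, -0.01 and 0.04 for replicates 1, 2 and 3. The array of replicate 1 with doxycycline correlated best with replicate 2 without it (0.04), and that of replicate 3 with replicate 3 (0.04). Values this near 0 cannot decide whether same-numbered arrays belong together. Each measured enzyme had 1 named probe set, so the mean over probe sets gave no alternative.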
